A study of Caenorhabditis elegans with 6 samples.

Results

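The sperm genes described here are the genes of Caenorhabditis elegans whose symbol belongs to the msp, ssp, nspd or spe families, or is gsp-3 or gsp-4. Symbols were read from the Ensembl annotation of WBcel235 and matched to the deposited counts by gene identifier. The rule found 84 of the 46748 genes in the count table: 31 msp, 29 spe, 12 ssp, 10 nspd and 2 gsp genes. Of the 84, 82 had a count in at least 1 library and 65 passed the filter on low counts and were tested (27 msp, 17 spe, 10 ssp, 9 nspd and 2 gsp).

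A hermaphrodite of C. elegans makes a limited number of sperm as a late larva and then switches its germ line to oocytes, so an adult holds stored sperm and no longer makes them. Major sperm proteins, encoded by the many msp genes, form the filaments that let the crawling sperm move, and MSP that leaves the sperm also tells oocytes to mature and ovulate. In the spermatocyte, MSP is packed into fibrous bodies tied to membranous organelles, which carry it into the budding spermatid. The spe genes were found as mutants with defective sperm and act at successive steps: transcription in spermatocytes, assembly of the fibrous bodies, activation of the spermatid, and fusion with the egg. GSP-3 and GSP-4 are protein phosphatases of the PP1 type needed for sperm to form and move. The ssp genes encode small proteins with an MSP domain, and the nspd genes encode short nematode-specific peptides made in the male germ line.

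The series measured RNA of whole day 1 adults in 6 libraries, 3 from wild-type worms (strain N2) and 3 from worms with crh-1(syb385) (strain VDL786), an allele made to remove the circular RNA of the CREB gene crh-1. The second group is called the knockout below, and VDL786 is the only strain with this allele in the series. Worms of both groups grew at 20 °C, were moved as L4 larvae to plates with 25 µM FUdR, which blocks DNA synthesis and so the growth of progeny, and were caught on a 30 µm mesh. FUdR was therefore present in wild type and knockout alike, from the larval stage at which sperm are made. In RNA of whole worms, fewer sperm and less RNA per sperm cannot be told apart. Levels are in CPM, the count of a gene over the TMM-scaled size of its library, and comparisons between genes use CPM per kb of exon. Values of the 3 libraries of a group are given in the order of their replicate numbers.

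Total counts ran from 38974777 to 47444165 per library, and the protein-coding part from 14188050 to 35075781. Knockout replicate 2 stood apart, with 58.54% of its counts in rRNA genes against 22.86% to 36.41% in the other 5 libraries. The 84 sperm genes held 12536, 14899 and 9067 counts in wild-type replicates 1 to 3, which was 0.0517%, 0.0568% and 0.0317% of the protein-coding counts. They held 12707, 3855 and 8304 counts in knockout replicates 1 to 3, or 0.0483%, 0.0272% and 0.0237%. The gene crh-1 itself was at 21.1 ± 2.63 CPM in wild type against 19.8 ± 3.53 CPM in the knockout (SD, n = 3), and since its linear and circular transcripts share exons, this level does not check the genotype. The labels number the replicates 1 to 3 in both groups, and libraries with the same number deviated together across genes, so differences are also given within each number.

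The comparison of knockout with wild type called 0 of the 65 tested sperm genes, as it called 0% of the 14354 genes tested (edgeR quasi-likelihood test, adjusted p under 0.05). Adjusted p was 0.996 or above for each of the 65 by edgeR. Yet 64 of the 65 had a log2 fold change below 0, against 47.7% of all genes tested, with a median of -0.58 for the sperm genes and 0.02 for all genes. The values ran from -1.84 for nspd-9 to 0.14 for ssp-37. At an unadjusted p under 0.05, 1 sperm gene was lower (nspd-9), where the background was 0.578%, and 0 were higher, where it was 0.404%. Because most of these genes move together from library to library, the count of 64 is not a count of independent observations.

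Within the 3 replicate numbers the genotypes differed by unequal amounts, and the inequality itself was not tested. In replicate 1 the knockout was lower in 37 of 65 sperm genes (background 48.8%), and the median log2 difference was -0.03. In replicate 2 it was lower in 61 of 65 (background 49.4%), with a median of -1.02. In replicate 3 it was lower in 60 of 65 (background 50.3%), with a median of -1.59. Counted over the pairs, 31 of 65 genes were lower in the knockout in every one of them (background 10.4%). The lowest of the 6 libraries was knockout replicate 3 for 52 of 65 genes (background 25.6%). The median over the tested sperm genes was -0.19 without knockout replicate 3, with 49 of 67 genes below 0, and it was -0.48 without knockout replicate 2 and -1.43 without knockout replicate 1.

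**Figure D1:**
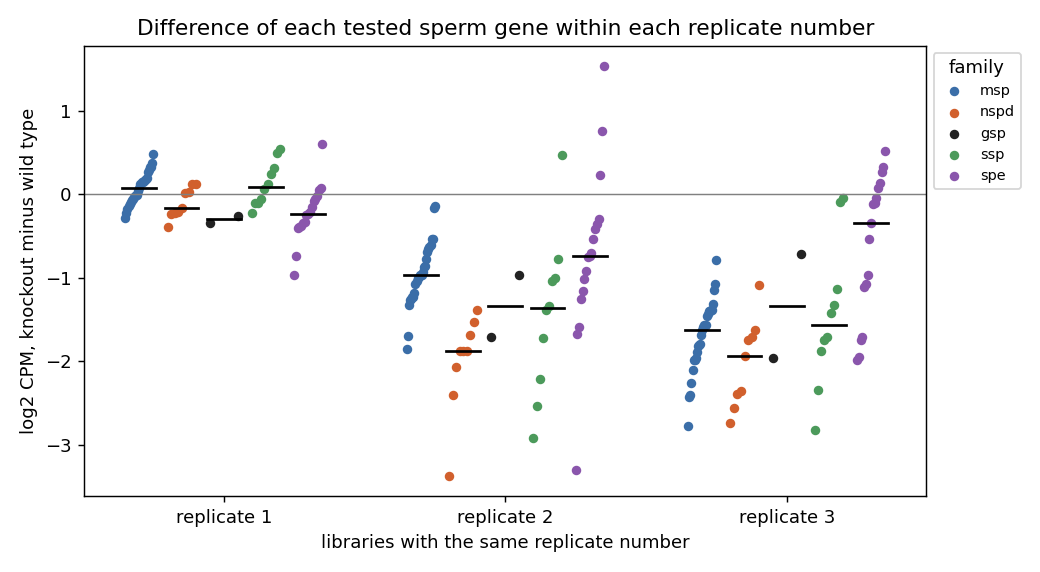
Difference of log2 CPM, knockout minus wild type, for each of the 65 tested sperm genes within each replicate number; each point is a gene, colours give the family, and black bars are family medians. The points straddle 0 in replicate 1 and lie mostly below 0 in replicates 2 and 3, with the widest range among the spe genes in replicates 1 and 2.

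With the replicate number as a block in the model, again 0 of the 65 sperm genes were called (smallest adjusted p 0.771 by edgeR), beside 1 gene, or 0.00697%, of all those tested. At an unadjusted p under 0.05, 32 of 65 sperm genes were on the lower side in that fit, against 3.03% of all genes, and 0 on the higher side; in either direction the background was 4.77%. These were 15 of the 27 msp genes, 9 of the 9 nspd genes, 5 of the 17 spe genes, both gsp genes and 1 of the 10 ssp genes. The median log2 fold change with the block was -0.88. Counted in either direction, the 32 became 46 of 63 without both libraries numbered 1 (background 4.75%), 16 of 64 without both numbered 2 (background 1.96%) and 6 of 67 without both numbered 3 (background 31.9%). In the last of these fits the share of sperm genes was below the background. Fits without both libraries of a number rest on few libraries, and their background varied from 1.96% to 31.9%. Because most sperm genes move together, neither the 32 nor the counts from these fits are counts of independent observations. DESeq2, run without the block, called 0.186% of the genes it tested and 0 of the sperm genes (smallest DESeq2 adjusted p 0.981).

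The major sperm protein genes were the largest of the families. All 31 of them are short genes in 1 annotated exon, with a median of 455 exon bases, whereas 2.65% of all protein-coding genes have a single exon. Split where the gap between neighbours passes 1 Mb, they lie in 3 regions of WBcel235: 13 genes on chromosome II between 4785861 and 5810342, 9 on chromosome IV between 5055593 and 5316944, and 9 on chromosome IV between 9688982 and 10143775. Of the 31, 20 have another of the 84 sperm genes within 10 kb. Copies of msp are near-identical, and reads that map to several places were left out of the counts, so the level of any one copy is uncertain and their summed level is a lower estimate.

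Summed over the 31 msp genes, the level was 130, 129 and 61.2 CPM in wild-type replicates 1 to 3. In knockout replicates 1 to 3 it was 138, 70.7 and 18.6 CPM. Knockout replicate 1 was thus the highest of the 6 libraries and knockout replicate 3 the lowest, and the groups overlapped. The means were 107 ± 39.4 CPM in wild type against 75.8 ± 59.9 CPM in the knockout (SD, n = 3), a difference smaller than either SD. Within a number, wild type over knockout was 0.943, 1.82 and 3.3 for replicates 1, 2 and 3. The highest knockout library exceeded the lowest 7.44-fold, and the same ratio in wild type was 2.12.

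**Figure D2:**
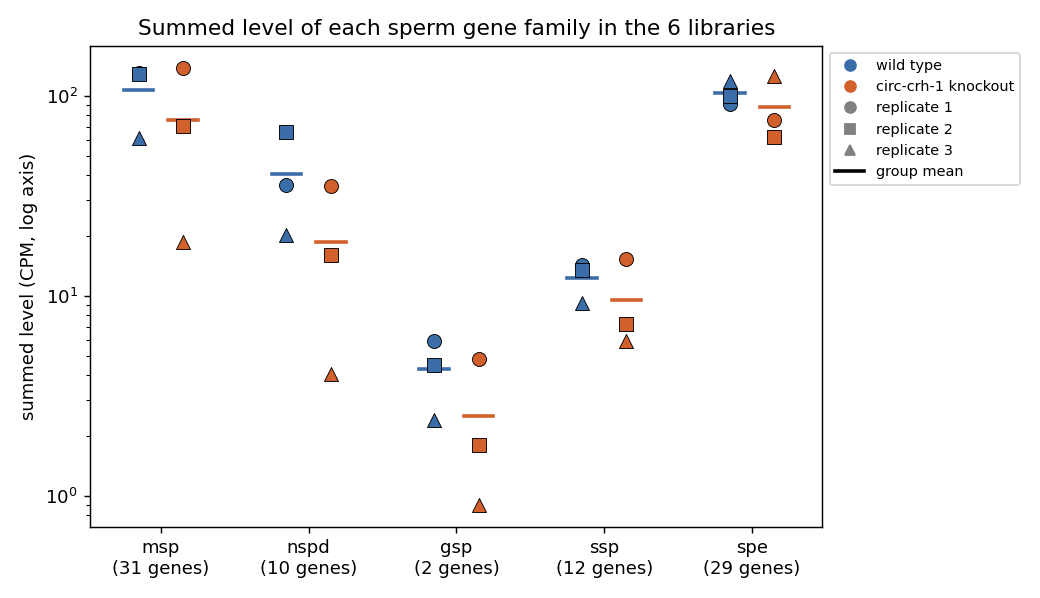
Summed level (CPM, log axis) of the msp, nspd, gsp, ssp and spe genes in each library; symbols give the replicate number, colours the genotype, and horizontal bars the mean of 3 libraries. In the msp, nspd, gsp and ssp families the replicate 3 library was the lowest of its genotype, whereas the summed spe level, which spe-39, spe-48 and spe-44 dominate, was the highest there.

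The tested msp genes followed one another closely. All 27 lay below 0 in log2 fold change, between -0.95 and -0.17 with a median of -0.52 and standard errors of 0.58 to 0.78, and all 27 were lowest in knockout replicate 3. Their Pearson correlation with the mean log2 CPM of the 65 tested sperm genes ran from 0.91 to 1 over the 6 libraries. These 27 genes are part of that mean, so high values are partly built in. The groups overlapped in each of them, and the smallest unadjusted p of an msp gene was 0.184 by edgeR.

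Per kb of exon the most abundant was msp-31 (II, 4916179 to 4916562, minus strand). It stood at 8.55, 8.28 and 5.2 CPM in the wild-type libraries, against 10.8, 4.55 and 1.58 CPM in those of the knockout. The log2 fold change of msp-31 was -0.38 (SE 0.59; edgeR adjusted p = 0.996), and 0.08 without knockout replicate 3. The gene aagr-2 overlaps msp-31 on the same strand, and reads that fall in exons of both were not counted. Next came msp-57 (IV, 5062543 to 5062997), at 8.73, 8.43 and 3.33 CPM in the wild-type libraries, against 7.9, 4.27 and 1.56 CPM in those of the knockout. For msp-57 the knockout was lower within each number, and its log2 fold change was -0.58 (SE 0.58; edgeR adjusted p = 0.996). The third by level, msp-36 (IV, 10095400 to 10095851), had -0.41 (SE 0.69), and 0.10 without knockout replicate 3.

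The msp genes with the smallest p were less abundant. For msp-65 (IV, 5316488 to 5316944) the values were 2.32, 2.77 and 1.24 CPM in the wild-type libraries, against 2.14, 0.82 and 0.3 CPM in those of the knockout. Its log2 fold change was -0.95 (SE 0.66; edgeR adjusted p = 0.996), and its fold in the knockout relative to wild type had a 95% interval of 0.183 to 1.46. For msp-142 (II, 5797893 to 5798339) they were 3.29, 3.58 and 1.7 CPM against 2.69, 1.56 and 0.319 CPM, with a log2 fold change of -0.91 (SE 0.66). In both genes knockout replicate 1 lay within the wild-type range and knockout replicate 3 was far below it. A further one, msp-113, had 2.96, 3.33 and 1.93 CPM in the wild-type libraries, against 3.28, 1.35 and 0.244 CPM in those of the knockout, at -0.75 (SE 0.73). For msp-79 the log2 fold change was -0.89 (SE 0.78).

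The nspd genes had the lowest median of the larger families. Their summed level was 35.8, 65.6 and 20.2 CPM in wild-type replicates 1 to 3 and 35.5, 16 and 4.07 CPM in knockout replicates 1 to 3. Replicate 1 was level between the genotypes, while in replicates 2 and 3 wild type exceeded knockout 4.11-fold and 4.96-fold. The means of 40.5 ± 23.1 CPM and 18.5 ± 15.9 CPM (SD, n = 3) overlapped within their spread. The 9 tested nspd genes lay below 0, at -1.84 to -0.86 on the log2 scale, and their median was -1.11.

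Wild-type replicate 2 was the highest library for all 9 tested nspd genes, a position it held in 9.47% of all genes tested and in 23 of the 65 sperm genes. Among the tested msp genes it was the highest in 6 of 27. The gene nspd-2 (IV, 9844029 to 9844337), the most abundant of the 84 per kb of exon, had 9.02, 18.4 and 5.03 CPM in the wild-type libraries, against 9.81, 3.45 and 0.713 CPM in those of the knockout. For nspd-2 the log2 fold change was -1.21 (SE 0.80; edgeR adjusted p = 0.996), and -0.59 without wild-type replicate 2. The next by level, nspd-1 and nspd-5, had -1.11 (SE 0.73) and -1.22 (SE 0.79).

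One nspd gene separated the groups. The gene nspd-9 (III, 4830010 to 4830346) had 1.02, 2.56 and 0.792 CPM in the wild-type libraries, against 0.762, 0.205 and 0.225 CPM in those of the knockout, so that each knockout library lay below each wild-type library, by a small margin for knockout replicate 1. Its log2 fold change was -1.84 (SE 0.67; edgeR unadjusted p = 0.0235, adjusted p = 0.996), with a 95% interval of the fold from 0.0975 to 0.804. Behind these levels were 46, 122 and 34 counts for wild type against 36, 5 and 12 for the knockout, and the log2 fold change was -1.16 without wild-type replicate 2. Groups without overlap, lower in the knockout, were found in 3 of the 65 sperm genes (nspd-9, spe-46 and spe-4), against 1.56% of all genes, and in the higher direction in 0, against 1.72%. After nspd-9 the smallest p of the family was that of nspd-4, at -1.26 (SE 0.63), where knockout replicate 1 (2.5 CPM) lay inside the wild-type range of 2.12 to 4.97 CPM. In nspd-10 the order was alike, with 1.88, 2.54 and 0.769 CPM in wild type against 1.59, 0.656 and 0.338 CPM.

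The phosphatase genes gsp-3 and gsp-4 are both on chromosome I. For gsp-3 (4709317 to 4710708) the values were 3.01, 2.37 and 1.44 CPM in the wild-type libraries, against 2.5, 1.19 and 0.338 CPM in those of the knockout. For gsp-4 (3838237 to 3839899) the levels were 2.94, 2.12 and 0.956 CPM against 2.31, 0.615 and 0.563 CPM. In both genes each knockout library was below the wild-type library of the same number, and knockout replicates 2 and 3 were below the whole wild-type range, with knockout replicate 1 inside it. The log2 fold changes were -0.76 (SE 0.64) and -0.77 (SE 0.64), with 95% intervals of the fold from 0.214 to 1.63 and from 0.214 to 1.6. On the same strand gsp-4 overlaps T03F1.6, and reads in exons of both were not counted.

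Among the ssp genes, summed levels were 14.2, 13.4 and 9.23 CPM in the wild-type libraries, against 15.3, 7.26 and 5.95 CPM in those of the knockout, with means of 12.3 ± 2.67 and 9.51 ± 5.07 CPM (SD, n = 3). Of the 10 tested, 9 lay below 0 in log2 fold change, and the median was -0.76. The most abundant of them, ssp-37 (I, 12561040 to 12561560), did not share the pattern: it had 4.57, 2.98 and 4.94 CPM in the wild-type libraries, against 4.98, 4.14 and 4.64 CPM in those of the knockout. Its log2 fold change was 0.14 (SE 0.31), with a 95% interval of the fold from 0.678 to 1.79, and its correlation with the mean of the tested sperm genes over the 6 libraries was -0.32. Without scaling factors the value was -0.07, and without wild-type replicate 2 it was -0.05.

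The other 9 tested ssp genes were nearer to that mean, of which they are part, with correlations of 0.72 to 0.99. Of these, ssp-10 (IV, 9850646 to 9851061) had 2.36, 1.99 and 1.33 CPM in the wild-type libraries, against 2.8, 0.943 and 0.469 CPM in those of the knockout, at -0.43 (SE 0.61), and 0.02 without knockout replicate 3. The gene ssp-35 (V, 12263368 to 12263845) had 1.83, 2.14 and 0.606 CPM against 1.57, 0.615 and 0.131 CPM, at -0.98 (SE 0.79). In both, knockout replicate 1 was in or above the wild-type range. Lower still in level, ssp-31 had -1.02 (SE 0.87), ssp-33 -0.88 (SE 0.85) and ssp-11 -0.81 (SE 0.76). The gene given here as ssp-11 (IV, 4999432 to 4999853) is one of a pair that Ensembl names ssp-9, and its name was taken from RefSeq.

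**Figure D3:**
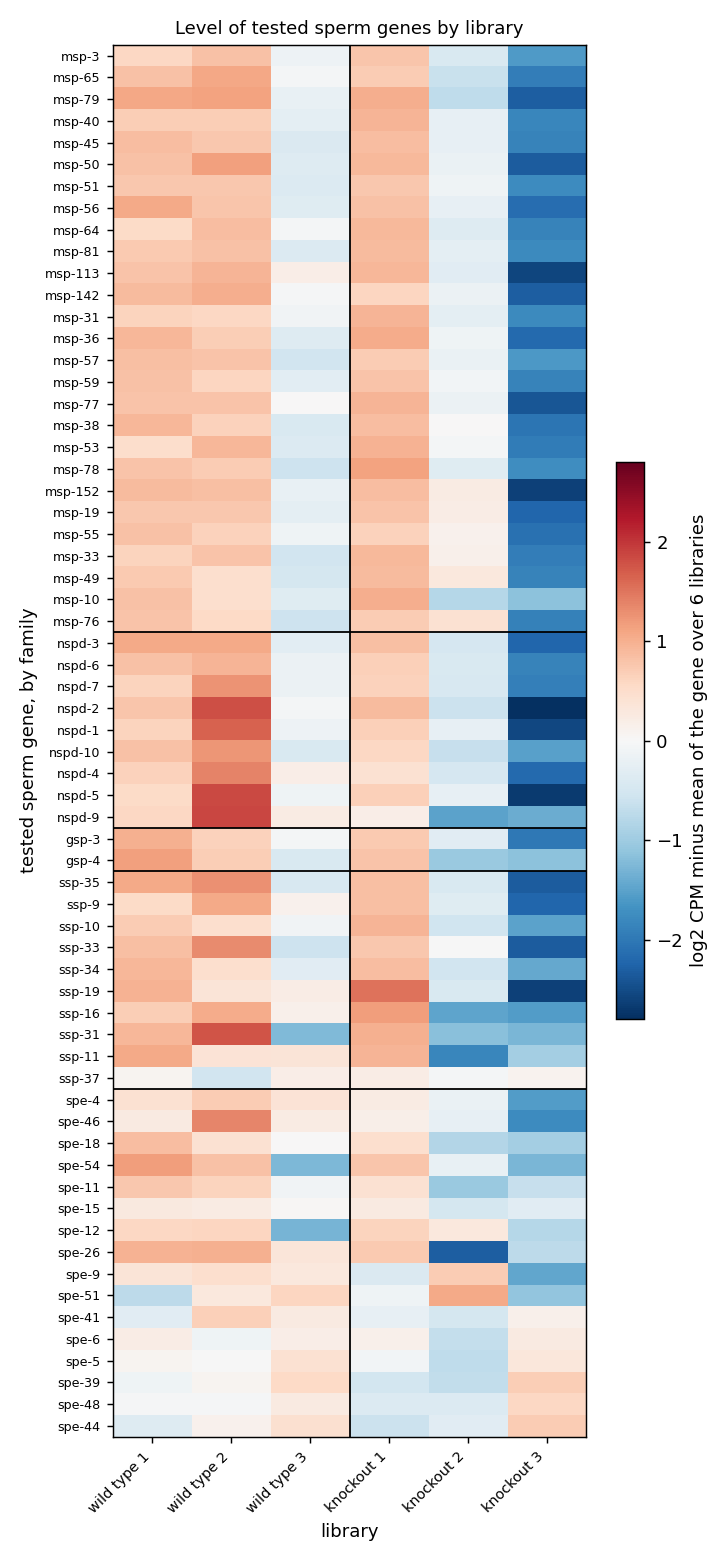
Level of 64 of the 65 tested sperm genes in each library, as log2 CPM minus the mean of the gene over the 6 libraries; rows are genes by family and columns are libraries. The msp, nspd and gsp rows are lowest in knockout replicate 3 or 2 and high in wild-type replicates 1 and 2 and knockout replicate 1, while the rows from spe-41 to spe-44 at the foot do not follow them.

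The spe genes did not share one pattern. Their summed level was 90.9, 100 and 118 CPM in the wild-type libraries, against 75.4, 62.4 and 126 CPM in those of the knockout, with means of 103 ± 13.9 and 88.1 ± 33.8 CPM (SD, n = 3). Knockout replicate 3, the lowest library for msp, had the highest sum here, but spe-39, spe-48 and spe-44 supplied 59.8, 29.2 and 15.3 of its 126 CPM. With each tested spe gene weighted alike, as the mean over the 17 of log2 CPM minus the mean of the gene, the levels were 0.30, 0.39 and 0.09 in wild type against 0.07, -0.33 and -0.52 for the knockout. On that scale replicate 3 was the lowest of each genotype, as in msp, and 7 of the 17 genes were lowest in knockout replicate 3. All 17 tested spe genes had a log2 fold change at or below -0.05, and the median was -0.33. Unlike msp, spe genes have several exons (a median of 7), and none of them has another of the 84 sperm genes within 10 kb.

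The transcription factor gene spe-44 acts at the start of the programme, in spermatocytes. It stood at 7.12, 10 and 12.7 CPM in the wild-type libraries, against 6.04, 7.46 and 15.3 CPM in those of the knockout. The replicate 3 library was the highest of each genotype, the reverse of msp, and the correlation with the mean of the tested sperm genes was -0.70 over the 6 libraries. The log2 fold change was -0.05 (SE 0.40), with a 95% interval of the fold from 0.515 to 1.81, and its sign changed without wild-type replicate 3 (0.22).

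Genes for assembly of the fibrous bodies and for spermatid budding were found on both sides of that divide. The trafficking gene spe-39 (V, 6785457 to 6787867), which also acts outside sperm, was the most abundant spe gene per kb of exon. It had 33.9, 38.9 and 54.1 CPM in the wild-type libraries, against 26, 23.1 and 59.8 CPM in those of the knockout, with the replicate 3 library again the highest of each genotype. The fitted log2 fold change was -0.22 (SE 0.40), and 0.05 without wild-type replicate 3. For spe-5, which encodes a subunit of the vacuolar proton pump, the log2 fold change was -0.27 (SE 0.32). The kinase gene spe-6, needed for MSP to assemble into fibrous bodies, had 2.21, 1.74 and 2.17 CPM in the wild-type libraries, against 2.12, 1.19 and 2.27 CPM in those of the knockout, at -0.12 (SE 0.37). Knockout replicate 2 alone lay apart in spe-6, and without it the value was 0.12.

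Others of the same role were nearer to msp. The presenilin-related gene spe-4 (I, 7454669 to 7456887) had 1.04, 1.28 and 1 CPM in the wild-type libraries, against 0.889, 0.656 and 0.225 CPM in those of the knockout, with no overlap of the groups. Its log2 fold change was -0.91 (SE 0.53; edgeR unadjusted p = 0.118, adjusted p = 0.996), with a 95% interval of the fold from 0.231 to 1.22. The kelch-repeat gene spe-26 had 1.59, 1.61 and 1 CPM in the wild-type libraries, against 1.33, 0.123 and 0.45 CPM in those of the knockout, at -1.10 (SE 0.68), the knockout replicate 2 level resting on 3 counts. Without knockout replicate 2 the value for spe-26 was -0.63. For spe-15, a myosin VI gene, it was -0.33 (SE 0.30). Of the 8 genes listed for this role, which leave out spe-18, 6 were tested, with a median of -0.30.

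Of the sperm activation genes 2 of 8 were tested. The gene spe-46, which keeps spermatids from activating too early, had 1.28, 2.81 and 1.26 CPM in the wild-type libraries, against 1.21, 0.902 and 0.282 CPM in those of the knockout. The groups did not overlap, although knockout replicate 1 and wild-type replicate 3 were close, and the log2 fold change was -1.17 (SE 0.59; edgeR unadjusted p = 0.0794, adjusted p = 0.996). Without wild-type replicate 2 it was -0.68. The membrane protein gene spe-12 had 0.553, 0.566 and 0.117 CPM in the wild-type libraries, against 0.572, 0.451 and 0.188 CPM in those of the knockout, at -0.05 (SE 0.67), and 0.08 with the replicate block. The tyrosine kinase gene spe-8, of the same pathway, was under the filter, at 0.221, 0.21 and 0.117 CPM against 0.212, 0.123 and 0.0188 CPM, and so was spe-47, at 0.155, 0.189 and 0.186 CPM against 0.318, 0.123 and 0.206 CPM.

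Genes for fusion with the egg were low throughout, with 0.102 to 0.324 CPM per kb of exon in the 4 that were tested. The most abundant, spe-41, encodes a TRP calcium channel of the sperm membrane. It had 0.663, 1.34 and 1 CPM in the wild-type libraries, against 0.699, 0.574 and 0.92 CPM in those of the knockout, at -0.44 (SE 0.43), with groups that overlapped. For spe-9, which encodes a sperm membrane protein with EGF repeats, counts were 11, 13 and 10 in wild type and 6, 8 and 2 in knockout, and the log2 fold change was -0.75 (SE 0.72). For spe-51, which encodes a secreted sperm protein, it was -0.06 (SE 0.74), on 4 to 15 counts a library. Differences within the replicate numbers had both signs for spe-9, spe-51 and spe-41. The four-pass membrane protein gene spe-38 was under the filter, at 0.177, 0.168 and 0.0466 CPM against 0.106, 0.123 and 0.0751 CPM.

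The paternal factor SPE-11 is carried into the egg by the sperm. Its gene spe-11 (I, 5330576 to 5332175) had 2.67, 2.45 and 1.47 CPM in the wild-type libraries, against 2.12, 0.738 and 0.995 CPM in those of the knockout. Knockout replicates 2 and 3 lay below the wild-type range and replicate 1 inside it, with a log2 fold change of -0.76 (SE 0.47) and a 95% interval of the fold from 0.278 to 1.25. Among the spe genes not placed in a role, spe-18 had -0.78 (SE 0.51), spe-54 had -0.62 (SE 0.79), and spe-48 had -0.05 (SE 0.32). Of these, spe-18 also helps MSP form fibrous bodies but was not in the list for that role. At 18.9, 19 and 23.2 CPM in the wild-type libraries, against 14.9, 14.8 and 29.2 CPM in those of the knockout, spe-48 ran with spe-44 and spe-39.

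**Figure D4:**
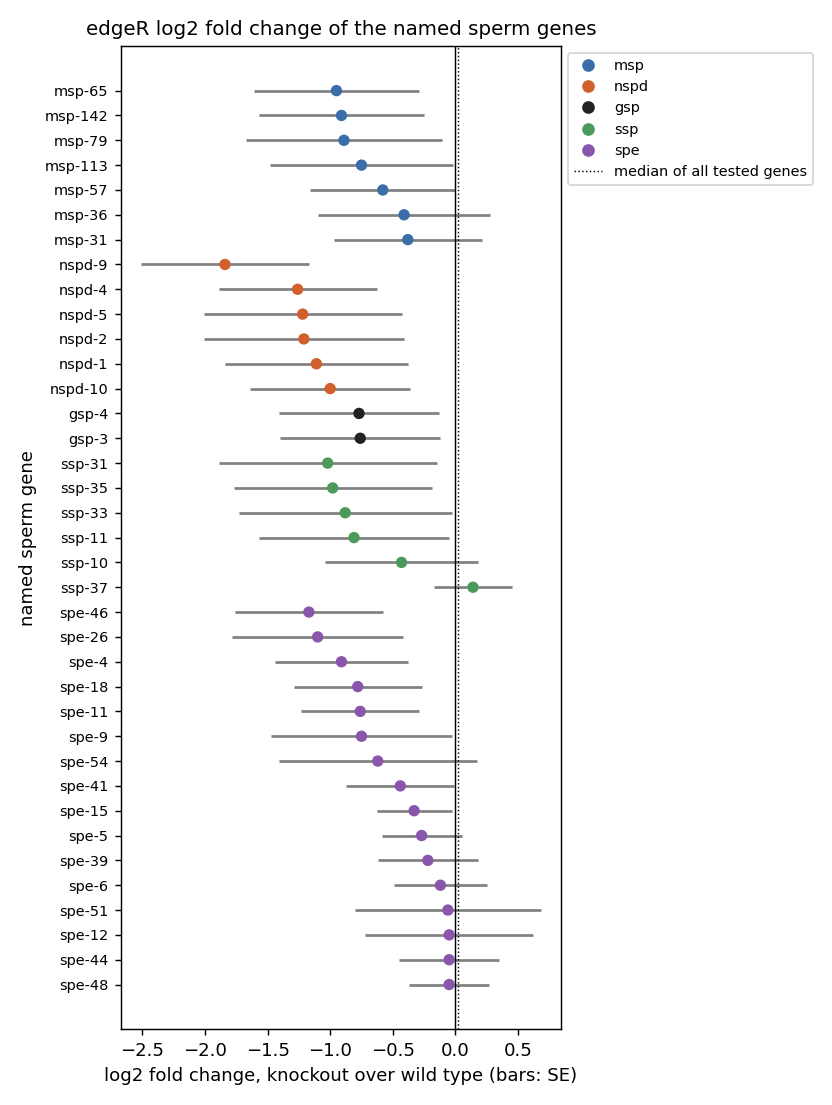
edgeR log2 fold change, knockout over wild type, of the tested sperm genes named by rule, with bars of 1 SE; the dotted line is the median of all tested genes at 0.02. The points run from -1.84 for nspd-9 to 0.14 for ssp-37.

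The 19 sperm genes under the filter had at most 58 counts each over the 6 libraries. They were msp-32, msp-58, msp-63, msp-74, nspd-8, ssp-32, ssp-36 and 12 spe genes, the latter spread over activation, fusion and fibrous body assembly. Together they had 85, 140 and 45 counts for wild type against 116, 27 and 34 for the knockout, which is 1.88, 2.93 and 1.05 CPM against 2.46, 1.11 and 0.638 CPM. Knockout replicate 1 was thus within the wild-type range for these genes too. For msp-32 and nspd-8 there were 0 counts in each library, which allows up to 0.0563 to 0.123 CPM per library at a limit of 3 counts. Multi-mapped reads were left out and the uniqueness of these exons was not computed. The limit therefore covers counted reads only and does not bound the full level, above all for the msp copy.

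Sperm genes outside the rule, taken from a list of 27 symbols, were read next to it. Of 25 such genes with counts, 21 were tested and 0 called, and the 21 lay below 0 with a median of -0.68. The symbol msd-1 stands for a pair of these 25 gene identifiers, of which only the more abundant was tested. The MSP-domain gene msd-4 had 8.73, 14.3 and 5.45 CPM in the wild-type libraries, against 9.78, 6.69 and 0.882 CPM in those of the knockout, at -0.72 (SE 0.71). The sperm chromatin gene spch-3 had -0.57 (SE 0.55), the dysferlin-related fer-1 -0.80 (SE 0.52), comp-1 -0.98 (SE 0.70), and the spermatogenesis Argonaute genes alg-3 and alg-4 -0.74 (SE 0.54) and -0.75 (SE 0.62). The gene fog-1, which acts in setting the sperm fate, was highest in knockout replicate 3, as spe-44 was, and so were the 3 genes after it. It had 6.63, 9.64 and 12.1 CPM in the wild-type libraries, against 4.15, 5.13 and 14.8 CPM in those of the knockout, at -0.24 (SE 0.49). The translational regulator gene cpb-1 had 6.48, 15.5 and 15.1 CPM against 4.38, 7.22 and 18.7 CPM, at -0.29 (SE 0.54). The zinc transporter gene zipt-7.1 had 16.6, 23.6 and 32.6 CPM against 12.6, 13.4 and 35.6 CPM, at -0.24 (SE 0.45). The translation factor gene ife-1 had 122, 143 and 175 CPM against 123, 129 and 181 CPM, at -0.02 (SE 0.29).

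The genes outside the rule with the pattern most like the mean of the 65 sperm genes, among 11190 with a mean of at least 1 CPM, were gipc-1, C48E7.7, smz-2, B0252.5, F56B3.6, rmd-3, acdh-8, C02F5.5, gipc-2 and W03D8.9. Their Pearson correlations over the 6 libraries ran from 0.9933 to 0.9982. The closest, gipc-1, had 10.8, 11.8 and 4.73 CPM in the wild-type libraries, against 9.66, 3.36 and 1.13 CPM in those of the knockout, a log2 fold change of -0.94 (SE 0.68). As in msp, its knockout replicate 1 was near wild type and its knockout replicate 3 the lowest. With so many genes compared over 6 libraries, high correlations are frequent.

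Oocyte and egg genes, the next product of the hermaphrodite germ line, were not ordered like msp. Their summed level over 26 genes was 4534, 7297 and 10650 CPM in the wild-type libraries, against 3282, 3114 and 11690 CPM in those of the knockout. The replicate 3 libraries, the lowest for msp in each genotype, were the highest here. Of the 26 genes, 24 lay below 0 (median log2 fold change -0.33), but in replicate 3 only 1 of 26 was lower in the knockout, and the median log2 differences within numbers 1, 2 and 3 were -0.65, -1.17 and 0.16. The smallest p of the list were those of perm-2 at 0.30 (SE 0.26), gna-2 at -0.45 (SE 0.40) and puf-11 at -0.44 (SE 0.57). The yolk receptor gene rme-2 had 281, 519 and 823 CPM in the wild-type libraries, against 225, 152 and 841 CPM in those of the knockout. The oocyte sum was thus highest in replicate 3 of each genotype, whereas replicates 1 and 2 were ordered differently in wild type and knockout. Within numbers 1 and 2, 25 and 24 of the 26 genes were lower in the knockout. The part of oocyte genes in the differences of the sperm genes was not tested.

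**Figure D5:**
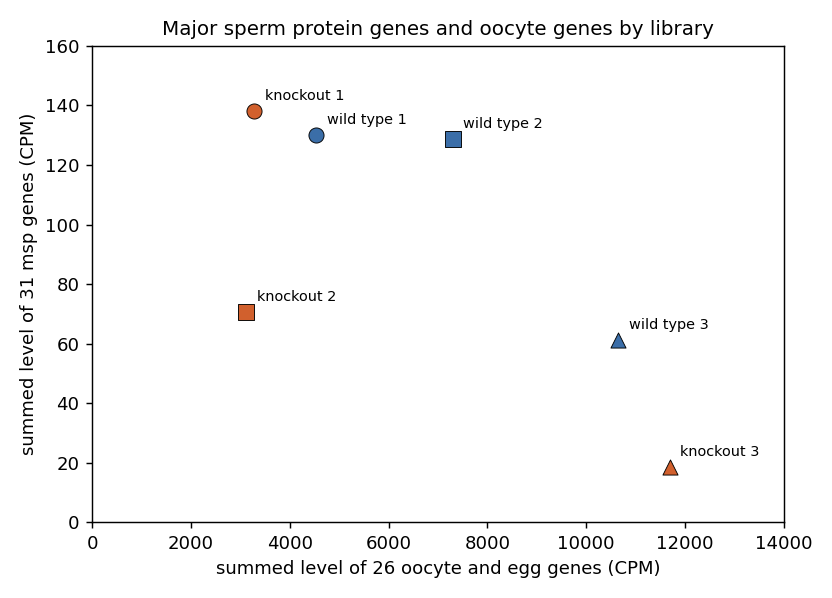
Summed level of 31 msp genes (CPM, vertical) against that of 26 oocyte and egg genes (CPM, horizontal) in each of the 6 libraries. Both replicate 3 libraries lie at the right with low msp levels, and knockout replicate 2 combines a low oocyte level with an msp level of 70.7 CPM.

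Genes by which oocytes and the gonad respond to MSP, such as the MSP receptor gene vab-1, showed 9 of 15 below 0 and 6 above, with 0 called. For vab-1 the values were 64.9, 88 and 136 CPM in the wild-type libraries, against 49.4, 41.7 and 142 CPM in those of the knockout, at -0.31 (SE 0.50). This order is that of the oocyte genes. In the same list the smallest p were those of cdk-1 at -0.46 (SE 0.43), ceh-18 at 0.33 (SE 0.33) and inx-14 at -0.35 (SE 0.40). Germ line stem cell and pachytene genes had 18 of 20 below 0 and a median of -0.24, among them syp-2 at -0.38 (SE 0.29), him-3 at -0.35 (SE 0.32) and rad-51 at -0.31 (SE 0.40).

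Males go on making sperm as adults, and in these libraries genes of the male soma were near 0. Summed over 10 such genes the level was 0.774, 2.39 and 1.51 CPM in the wild-type libraries, against 0.635, 1.35 and 0.788 CPM in those of the knockout. The polycystin gene pkd-2, of male sensory neurons, had 1, 10 and 5 counts in wild type and 0 in each knockout library, and lov-1 had 0, 9 and 2 counts against 0, 0 and 3. Wild-type replicate 2, the highest library for the tested nspd genes, was also the highest for this sum and for pkd-2, lov-1, cwp-1, cwp-2, mab-3 and try-5. The others of the list differed, all at very few counts. Of them, cwp-4 was highest in knockout replicate 2, cwp-5 in wild-type replicate 1, and cwp-3 and dmd-3 in wild-type replicate 3. The part of male genes in the result was not tested. The only male gene tested, try-5, had -0.45 (SE 0.48).

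Larval carry-over was read from molting genes, since L4 larvae make sperm. Of 11 molting and larval genes 4 were below 0 and 7 above, with a median of 0.33, and 0 were called. Their summed level was 90.7, 81.3 and 66.9 CPM in the wild-type libraries, against 93.4, 118 and 73.5 CPM in those of the knockout. The gene nas-37 alone supplied 66, 30.7 and 53 CPM of the wild-type sums, and 74.7, 57.8 and 37.1 CPM of those of the knockout. With each of the 11 genes weighted alike, the median log2 differences within replicates 1, 2 and 3 were -0.39, 0.08 and 1.36. The part of larval carry-over in the result was not tested. The smallest p of this list were those of mlt-10 at -0.59 (SE 0.38), mlt-11 at 0.76 (SE 0.73) and mlt-8 at 0.46 (SE 0.47). Adult hypodermis and intestine genes, the yolk protein genes among them, had 4 of 7 below 0 and a median of -0.03, with the adult collagen gene col-19 at 0.39 (SE 0.37), vit-4 at -0.15 (SE 0.28) and vit-3 at -0.13 (SE 0.30).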

How the data were processed

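The deposited values are raw counts, for each gene and library, which the authors made with featureCounts 1.5.0 over exons with strand setting 2 on Ensembl WBcel235, per the file headers. Its command sets nothing to keep multi-mapped reads or reads in several genes, so these were left out. The submitters' processing notes also name HISAT2 2.1.0, bcl2fastq 2.19 and DESeq2 1.26.0. Per the labels' protocols, 1 µg of total RNA went into stranded libraries depleted of rRNA.

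Names and positions came from Ensembl 115 (WBcel235), which lists 46449 of the 46748 genes; 1 of the genes named ssp-9 there is ssp-11 in RefSeq. All genes were tested together with edgeR 4.0.16 in R 4.3.3: filterByExpr (minimum count 10, minimum total 15), TMM scaling, and a quasi-likelihood F test with robust estimation and no covariates. P-values were adjusted by Benjamini-Hochberg over all 14354 genes, with a threshold of 0.05. SE is the size of the log2 fold change divided by sqrt(F); intervals are 95%. Log2 CPM used a prior count of 2. The labels call the replicates independent, so the main fit was planned without a block. The labels do not say whether replicates came from separate cultures, so p-values measure only the spread between these samples. Floors of 3 counts cover counting error only.

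The members, gene lists, roles and rules were chosen with earlier results of these data known, and no list was tested as a list. Named genes are, in each role, up to 4 with the smallest p and up to 3 with the highest CPM per kb, and some genes of known role. The 10 most alike outside the rule and up to 3 per further list with the smallest p are also named. The genes msd-4, spch-3, alg-3, alg-4, fog-1, cpb-1, zipt-7.1, ife-1, rme-2, vab-1, nas-37 and the male soma genes other than try-5 were added after their values were seen.

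Pairing was checked before calls were compared. Deviations from the group means correlated by 0.65, 0.48 and 0.58 across genes between libraries of the same number, and by -0.53 to 0.02 between others. The deviations of a gene cancel out within a group, so the values between other libraries are not independent of the same-number values. Over the tested sperm genes the same-number values were 0.47, 0.13 and 0.61, and wild-type replicate 2 correlated by 0.46 with knockout replicate 1, so these genes separate the numbers less. Since each same-number value was above 0.1, the replicate number was also fitted as a block, although the labels do not say what a number shares. The main fit had no block. SEs, p-values and intervals of single genes come from the main fit unless another fit is named. The common biological coefficient of variation (BCV) came to 0.397 without and 0.24 with the replicate block.

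On simulated counts for this comparison (14115 genes tested), 2 of 100 genes changed 2-fold and 62 of 100 changed 4-fold were recovered, with 6 false calls. Alternatives were other scalings and filters, DESeq2 1.42.0, the older edgeR method, the replicate block, a fit of protein-coding genes, a fit without rRNA genes, and each library left out. Added after seeing the data were both libraries of a number left out, with and without the block, and the count of genes below 0. Sequences of these genes were not used here, and 2 of the 84 genes enter the counts and sums but are not reported here by name or value.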

Additional observations from a re-analysis of the deposited data

How the results depend on the processing

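Of all genes tested, 0 were called except without scaling factors (5 genes), by DESeq2 (31 genes) and with the replicate block (1 gene); 0 sperm genes were called under any of these. The replicate block changed no other call. The median log2 fold change of the sperm genes was -0.83 without scaling factors, where the median of all genes was -0.21, and -0.88 with the replicate block. With 1 library left out it ran from -1.43 (without knockout replicate 1) to -0.19 (without knockout replicate 3), and 0 genes were called. The share of sperm genes below 0 then ran from 49 of 67 (without knockout replicate 3) to 63 of 65 (without wild-type replicate 2). Sperm genes at an unadjusted p under 0.05 with the block numbered 46 of 63, 16 of 64 and 6 of 67 without both libraries numbered 1, 2 and 3, where all genes numbered 680 of 14320, 284 of 14465 and 4716 of 14781. The cause of these shifts was not tested. Signs turned in some named genes: ssp-37 was -0.07 without scaling factors and spe-12 was 0.08 with the replicate block. Without both libraries numbered 2, the values were 0.01 for spe-6, 0.07 for spe-48, 0.17 for spe-12, 0.04 for ssp-31 and 0.11 for spe-44. Without both libraries numbered 3, it was 0.77 for spe-51. With 1 library left out, the ranges that crossed 0 among named genes were -0.44 to 0.34 (spe-12), -0.86 to 0.40 (spe-51), -0.05 to 0.32 (ssp-37), -0.78 to 0.05 (spe-39), -0.45 to 0.11 (spe-48), -0.55 to 0.22 (spe-44), -0.28 to 0.12 (spe-6), -1.27 to 0.08 (msp-31), -1.34 to 0.10 (msp-36) and -1.45 to 0.02 (ssp-10). The share of each gene's exons that is unique in the genome, a median over such genes and a promoter motif were not run. Depth limits the spe genes for activation and fusion, and reads shared by msp copies limit that family.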
